A study of Rattus norvegicus with 9 samples.

Results

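The 10 genes described here encode the 5 NF-κB transcription factor subunits (Nfkb1, Nfkb2, Rela, Relb and Rel) and 5 proteins that hold the pathway back or shape its output (Nfkbia, Nfkbib, Nfkbie, Nfkbiz and Tnfaip3). They were picked from the table by gene symbol, as a family named with earlier results of these data known. All 10 were found, once each, among the 19085 genes listed, and all 10 passed the filter on low counts that left 13256 genes for testing. Messenger RNA had been sequenced from primary osteoblasts (first passage) of male Sprague-Dawley pups, 24 hours old, after 7 days in osteogenic induction medium, in 3 groups of 3 libraries. The Control group received the induction medium alone. The paper lists dexamethasone among the contents of this medium, so every group received it, Control included. No group was without dexamethasone, and its part in the levels below was not tested. The Thrombin group received the same medium with 20 U/mL thrombin, the protease of the clotting cascade. The PD03 group received 20 U/mL thrombin together with PD03, short for PD0325901, which inhibits the kinase MEK, so that no group received PD03 without thrombin. The dose of PD03 is 0.1 μM in the series' design text and 0.1 mM in a protocol of the labels. The labels name the knee as tissue, whereas their growth protocol names the calvaria. The study's text speaks of independent samples, but the labels do not say whether the libraries of a group came from separate cultures or animals, so p-values measure only the spread between these libraries, which may be technical.

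NF-κB factors are dimers of the 5 subunits. In resting cells the inhibitor (IκB) proteins bind the dimers and keep most of them in the cytoplasm, and stimuli such as interleukin-1 activate a kinase complex that marks the IκB proteins for degradation, after which the dimers enter the nucleus. Activation is controlled mainly at the protein level, whereas transcripts of several subunits and inhibitors are themselves targets of the pathway, which gives it negative feedback. In bone, the pathway is known for its part in inflammation and in osteoclast formation. The libraries measured transcripts only, and in bulk RNA fewer cells of a type and less RNA per cell cannot be told apart.

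The promoters of the genes are shown first because NF-κB dimers bind a short motif. Whether the motif is related to the changes described below was not tested. RefSeq sequence of the rat assembly GRCr8 (250 bases before to 50 after the annotated start) was at hand for 9 of the 10 genes, and Relb had no entry. The pattern GGGANNTTCC, searched on both strands, occurred in 5 of the 9, compared with 1.3% of 33469 promoters of the same length. It was picked after several patterns had been tried on these promoters, so the share is a description. The looser pattern GGGNNNNNCC, which includes every match of the first, occurred in all 9 and in 47.3% of all promoters. The matches below are in capitals within the strand of the gene, and those in Nfkbia and Tnfaip3 lie on the opposite strand.
Nfkb1, chr2:226805440-226805469, minus strand, GRCr8: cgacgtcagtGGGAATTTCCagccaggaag
Nfkb2, chr1:255108274-255108373, plus strand, GRCr8: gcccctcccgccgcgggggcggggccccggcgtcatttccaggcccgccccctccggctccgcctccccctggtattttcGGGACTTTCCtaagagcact
Nfkbia, chr6:78597073-78597172, minus strand, GRCr8: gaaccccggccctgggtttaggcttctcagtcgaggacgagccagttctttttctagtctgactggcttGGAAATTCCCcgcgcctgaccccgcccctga
Nfkbiz, chr11:58251621-58251720, plus strand, GRCr8: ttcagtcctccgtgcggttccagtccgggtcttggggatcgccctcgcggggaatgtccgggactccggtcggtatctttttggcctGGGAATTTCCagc
Tnfaip3, chr1:15543980-15544079, minus strand, GRCr8: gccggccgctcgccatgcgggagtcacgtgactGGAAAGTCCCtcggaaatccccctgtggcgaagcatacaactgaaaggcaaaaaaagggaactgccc
The match in Nfkb1 lies at bases 4 to 13 after the start, and the others lie before it, at -20 to -11 in Nfkb2, -31 to -22 in Nfkbia, -13 to -4 in Nfkbiz and -67 to -58 in Tnfaip3. No match of GGGANNTTCC was found in these windows of Rela, Rel, Nfkbib and Nfkbie. A match is a stretch of letters and not a measured binding site.

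Total counts lay between 15447832 and 19841468 per library. The share of counts that fell on Col1a1 was 6.78% to 6.96% with PD03 and 4.18% to 5.05% without it, and levels were therefore scaled by TMM and are given as counts per 1000000 (CPM). Of 11 osteoblast markers 8 passed the filter, among them Runx2 (509 to 906 counts per library), Spp1 (817 to 3349), Alpl (6 to 62) and Col1a1 (at least 705156), whereas the late markers Bglap (1 to 5 counts), Ibsp (0 to 1) and Dmp1 (0 to 4) were at or near 0. The summed level of the list, most of it Col1a1, was 65874 to 72106 CPM in Control, 60832 to 64157 CPM in Thrombin and 103157 to 106437 CPM in PD03 libraries. Within the list, Alpl and Spp1 moved in opposite directions, with log2 fold changes of -2.24 and 1.54 for Thrombin against Control and 3.14 and -1.80 for PD03 against Thrombin. Runx2 gave 0.26 and -0.67 in these comparisons, and Col1a1 gave -0.15 and 0.75. Of 12 macrophage and blood cell markers, 10 were listed and 2 (Cd14 and Csf1r) passed the filter. Ptprc had 0 to 6 counts and Aif1 0 to 1. The summed level of these markers was 21.2 to 24.2 CPM in Control, 29.4 to 33.3 CPM in Thrombin and 17.9 to 19.6 CPM in PD03 libraries, most of it Cd14, and its part in the results below was not tested. Csf1r, with 5 to 26 counts per library, had means of 0.440, 0.746 and 1.24 CPM in Control, Thrombin and PD03 libraries. Its log2 fold change for PD03 against Control was 1.47 (edgeR, adjusted p = 0.0045), whereas that of Cd14 was -0.38. The summed osteoclast markers, most of them Ctsk, lay at 132 to 143, 99.0 to 107 and 169 to 178 CPM, with Ocstamp and Dcstamp at 0 to 1 counts, and the endothelial markers at 7.89 to 8.90, 7.29 to 9.75 and 12.0 to 14.0 CPM. Their part in the results was likewise not tested.

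With thrombin alone, small rises and 1 clear fall were measured among the 10 genes. Nfkb2, Nfkbib and Nfkbiz rose by 13.7% to 20.5%, and Tnfaip3, which encodes the ubiquitin-editing enzyme A20, fell by 30.7%, in a comparison in which 14.1% of all tested genes passed as higher and 14.6% as lower. When PD03 was present with thrombin, 7 of the 10 genes were lower than with thrombin alone (differences of -26.7% to -17.3%), Tnfaip3 was 88.8% higher, and Rela and Nfkbib did not pass the test. In that comparison 24.5% of all genes passed as lower and 25.3% as higher. Tests below are edgeR's quasi-likelihood test with p-values adjusted over all 13256 genes (Benjamini-Hochberg), and a gene passed the test at an adjusted p under 0.05. A gene was called when it passed and its log2 fold change also exceeded 0.58 in size.

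**Figure D1:**
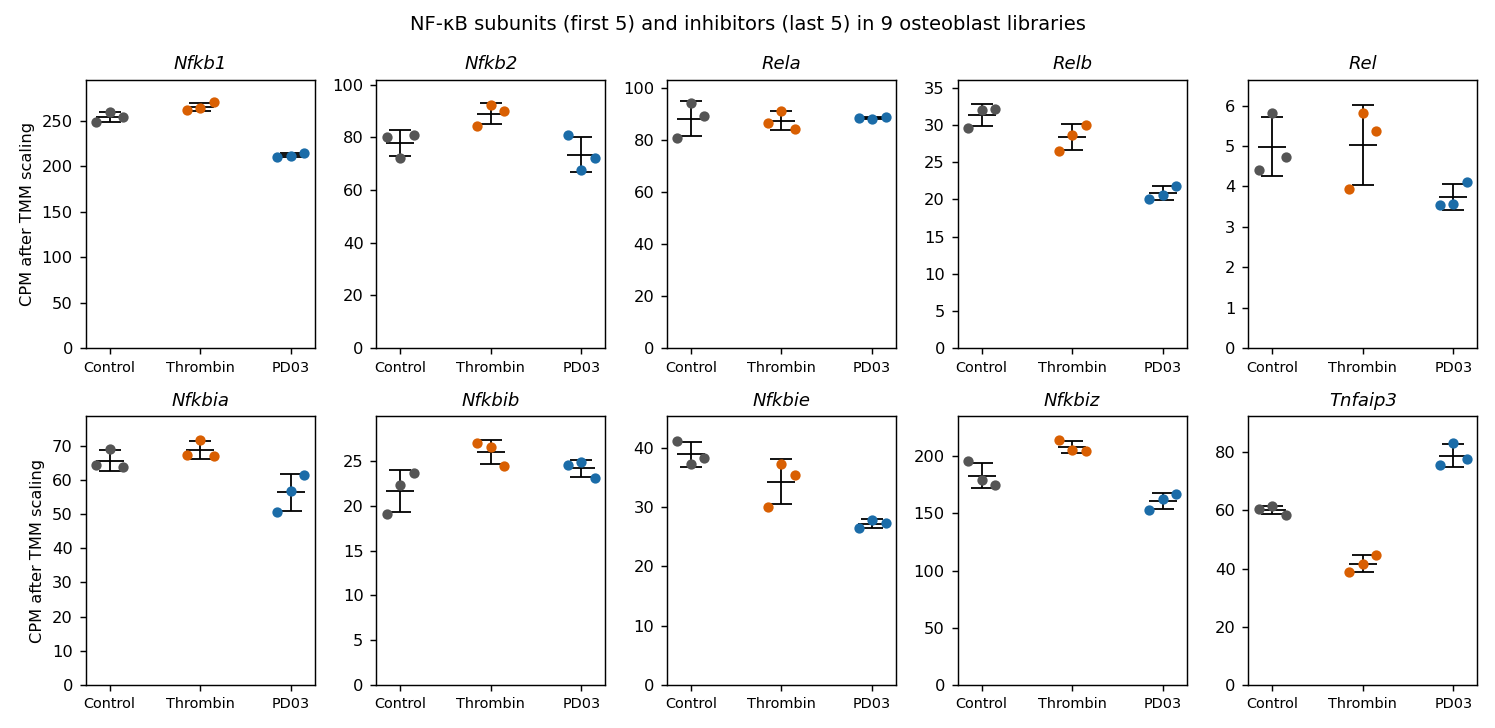
TMM-scaled CPM (linear axis from 0, one panel per gene) of the 10 NF-κB genes in the 9 libraries, with each library as a point and the group mean and SD (n = 3) as a bar. Tnfaip3 lay at 38.8 to 44.8 CPM in the Thrombin libraries, below every Control library, and at 75.8 to 83.3 CPM in the PD03 libraries, above every other library.

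Nfkb1 (ENSRNOG00000023258) encodes p105, the precursor of the p50 subunit. Its level was 249, 259 and 254 CPM in the Control libraries, 262, 264 and 270.2 CPM in the Thrombin libraries, and 211, 211 and 215 CPM in the PD03 libraries. The 3 groups did not overlap, and the PD03 libraries were the lowest. The log2 fold change was -0.32 for PD03 against Thrombin (standard error 0.037, adjusted p = 9.3e-10) and -0.26 for PD03 against Control (adjusted p = 2.3e-07). Thrombin against Control gave 0.064 with a 95% interval of -0.011 to 0.14, which did not pass (adjusted p = 0.21).

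Nfkb2 (ENSRNOG00000019311) encodes p100, which is processed to p52 and serves the non-canonical arm of the pathway. It stood at 80.2, 72.0 and 81.0 CPM in Control, 84.5, 92.4 and 89.9 CPM in Thrombin, and 80.7, 67.5 and 72.1 CPM in PD03 libraries. All Thrombin libraries were above all others, and Control and PD03 libraries overlapped. It rose with thrombin (by 0.19 on the log2 scale, standard error 0.057, adjusted p = 0.0085) and was lower with PD03 than with thrombin (-0.27, standard error 0.058, adjusted p = 1.0e-04). The rise no longer passed when replicate 2 of Control was left out (adjusted p = 0.095), nor when replicate 2 of Thrombin was (adjusted p = 0.056), nor from FPKM with 1 or 0.1 added (adjusted p = 0.080 and 0.077).

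Rela (ENSRNOG00000030888), the gene of the transactivating subunit p65, had 81.0, 94.3 and 89.5 CPM in Control, 86.7, 91.5 and 84.5 CPM in Thrombin, and 88.7, 88.0 and 88.9 CPM in PD03 libraries. The groups overlapped in every comparison, and the Control libraries covered the whole range of the other 6. The 95% intervals of the log2 fold change were -0.11 to 0.096 for Thrombin against Control, -0.089 to 0.12 for PD03 against Thrombin and -0.099 to 0.11 for PD03 against Control, with adjusted p-values of 0.92, 0.83 and 0.94. Its range over the group means was 0.017 on the log2 scale, whereas those of the other 9 genes ran from 0.27 to 0.92.

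Relb (ENSRNOG00000033235), whose product pairs with p52, had 29.6, 32.1 and 32.2 CPM in Control, 26.5, 28.6 and 30.0 CPM in Thrombin, and 20.0, 20.6 and 21.9 CPM in PD03 libraries. The PD03 libraries were below all others, and Control and Thrombin libraries overlapped. On the log2 scale, PD03 against Thrombin gave -0.45 (standard error 0.078, adjusted p = 5.7e-06) and PD03 against Control -0.59 (standard error 0.078, adjusted p = 3.9e-08). The second value (-0.587 to a further digit) was just past the threshold of 0.58 and fell short of it without Control replicate 2 (-0.576, adjusted p = 1.2e-06), without Control replicate 3 (-0.572) or without PD03 replicate 1 (-0.557).

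Rel (ENSRNOG00000054437), which encodes c-Rel, a subunit known mostly from lymphoid cells, was the least abundant, with 55 to 106 counts per library. Its levels were 4.41, 5.81 and 4.74 CPM in Control, 3.93, 5.81 and 5.36 CPM in Thrombin, and 3.55, 3.56 and 4.10 CPM in PD03 libraries. Thrombin replicate 1 lay among the PD03 libraries, while the Control libraries lay above them. PD03 against Thrombin gave -0.43 (standard error 0.18, adjusted p = 0.048), a result that did not pass with DESeq2 (adjusted p = 0.076), limma voom (0.066) or the replicate number as a block (0.051), nor without any 1 of Thrombin replicates 2 and 3 and PD03 replicates 1 and 2 (0.096 to 0.20).

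The classical inhibitors bind NF-κB dimers in the cytoplasm. Nfkbia (ENSRNOG00000007390) encodes IκBα, whose rapid resynthesis is the best known feedback of the pathway. It had 64.3, 69.1 and 63.7 CPM in Control, 67.4, 71.8 and 67.0 CPM in Thrombin, and 50.7, 56.9 and 61.6 CPM in PD03 libraries. The PD03 libraries were below all others and spread over a wider range than either group without PD03. The log2 fold change was -0.29 for PD03 against Thrombin (standard error 0.060, adjusted p = 8.8e-05), -0.22 for PD03 against Control (adjusted p = 0.0027) and 0.066 for Thrombin against Control (95% interval -0.054 to 0.19, adjusted p = 0.46).

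Nfkbib (ENSRNOG00000020063), the gene of IκBβ, had 19.0, 22.3 and 23.6 CPM in Control, 27.0, 26.5 and 24.5 CPM in Thrombin, and 24.5, 24.9 and 23.1 CPM in PD03 libraries. Every Thrombin library was above every Control library, and the PD03 libraries overlapped with both groups. It rose with thrombin (0.27, standard error 0.084, adjusted p = 0.012), although without Control replicate 1 the rise did not pass (adjusted p = 0.14). PD03 against Thrombin gave -0.11 (95% interval -0.27 to 0.061, adjusted p = 0.30) and PD03 against Control 0.16 (adjusted p = 0.12).

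Nfkbie (ENSRNOG00000019907) encodes IκBε. It had 41.2, 37.3 and 38.3 CPM in Control, 30.0, 37.3 and 35.4 CPM in Thrombin, and 26.4, 27.9 and 27.4 CPM in PD03 libraries. The PD03 libraries were the lowest and close to each other, whereas the Thrombin libraries ranged from 30.0 CPM up into the Control range. The log2 fold change was -0.33 for PD03 against Thrombin (standard error 0.075, adjusted p = 2.5e-04) and -0.52 for PD03 against Control (adjusted p = 2.4e-07). Thrombin against Control gave -0.18 (adjusted p = 0.052). The transcript length implied by the deposited FPKM values of this row was 7232 bases, longer than the whole gene in RefSeq (6836 bases), and the neighbouring gene Slc35b2, 922 bases away in RefSeq, had 1 count in all 9 libraries together. Whether the row also holds reads of Slc35b2 was not tested.

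**Figure D2:**
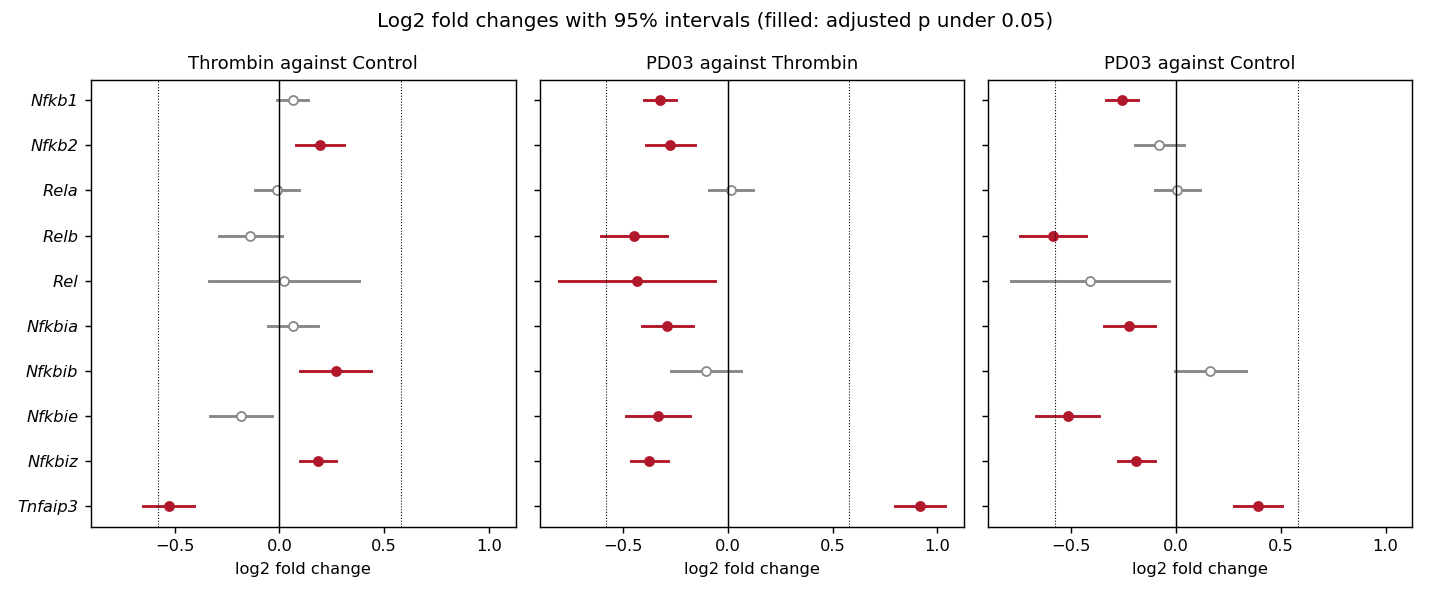
Log2 fold change (horizontal axis) with its 95% interval for the 10 genes (rows) in the 3 comparisons, from edgeR. Rela straddled 0 in each comparison, and Tnfaip3 had values of -0.53, 0.92 and 0.39.

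Nfkbiz (ENSRNOG00000031163) encodes IκBζ, a nuclear IκB protein that works together with p50 on a subset of target genes. Its levels were 196, 179 and 175 CPM in Control, 214, 206 and 205 CPM in Thrombin, and 153, 162 and 167 CPM in PD03 libraries. The 3 groups did not overlap. It rose with thrombin (0.19, standard error 0.043, adjusted p = 8.5e-04) and was lower with PD03 than with thrombin (-0.38, standard error 0.044, adjusted p = 1.2e-09) and than in Control (-0.19, adjusted p = 4.7e-04).

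Tnfaip3 (ENSRNOG00000049517) encodes A20, which removes activating ubiquitin chains upstream of the kinase complex. It had 60.6, 61.4 and 58.6 CPM in Control, 38.8, 41.6 and 44.8 CPM in Thrombin, and 75.8, 83.3 and 77.6 CPM in PD03 libraries. The groups did not overlap, with Thrombin lowest and PD03 highest. The log2 fold change was -0.53 for Thrombin against Control (standard error 0.060, adjusted p = 1.6e-09), 0.92 for PD03 against Thrombin (1.89-fold, standard error 0.059, adjusted p = 4.0e-17) and 0.39 for PD03 against Control (31.0% higher, adjusted p = 2.9e-07). Its difference between PD03 and Thrombin was larger in size than that of 91.4% of all tested genes, whereas those of the other 9 lay between 3.89% and 73.6%.

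Counted together, 3 genes rose and 1 fell in Thrombin against Control, compared with 14.1% and 14.6% of all tested genes that passed in each direction, and none of the 10 was called by edgeR (2.62% of all genes were called higher and 5.44% lower) or by DESeq2. At an unadjusted p under 0.05 in edgeR, 5 of the 10 differed in that comparison (37.8% of all genes). In PD03 against Thrombin, 1 passed as higher and 7 as lower (25.3% and 24.5% of all genes), and only Tnfaip3 was called (9.61% of all genes were called higher and 6.31% lower). In PD03 against Control, 1 passed as higher and 5 as lower (19.7% and 20.2% of all genes), with Relb called lower (4.07%) and none called higher (4.9%). The median log2 fold change of the 10 genes was 0.043, -0.31 and -0.21 in the 3 comparisons, and that of all tested genes -0.0060, 0.011 and -0.0039. The Thrombin libraries enter both the first and the second comparison, and the PD03 libraries both the second and the third, so that the signs of a gene in them are not independent of each other. No test was made over the family.

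The groups of libraries did not overlap for 5 of the 10 genes in Thrombin against Control (40.3% of all genes), for 7 in PD03 against Thrombin (55.5%) and for 7 in PD03 against Control (47.8%). The count in Thrombin against Control includes Nfkb1, which did not pass the test, and that in PD03 against Control includes Rel (adjusted p = 0.075). In PD03 against Thrombin, 6 of the 7 were lower (27.1% of all genes were lower without overlap).

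Levels of different genes were compared on the FPKM scale, which accounts for transcript length. The FPKM of Nfkbie rests on the implied length of 7232 bases described above, so the place of Nfkbie in the orders below is uncertain. In Control libraries Nfkb1 was highest (56.6 ± 0.782 FPKM, SD, n = 3), followed by Nfkbiz (46.3 ± 3.23), Nfkbia (33.4 ± 1.41), Rela (30.0 ± 2.03), Nfkb2 (26.5 ± 1.80), Relb (14.1 ± 0.537), Nfkbib (9.72 ± 0.976), Tnfaip3 (8.20 ± 0.231), Nfkbie (5.55 ± 0.346) and Rel (1.52 ± 0.214), and no neighbours in this order overlapped. In Thrombin libraries the order was the same except that Nfkb2 (29.9 ± 1.34) was above Rela (29.5 ± 1.23). These genes overlapped, as did Relb with Nfkbib and Tnfaip3 with Nfkbie. In PD03 libraries Relb (8.68 ± 0.372 FPKM) stood below Nfkbib (10.0 ± 0.406) and Tnfaip3 (9.92 ± 0.512), which overlapped with each other, and Nfkbia (26.5 ± 2.51 FPKM) overlapped with both Rela (27.8 ± 0.0843) and Nfkb2 (23.1 ± 2.10), although every Rela library lay above every Nfkb2 library.

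The FPKM of the 5 subunits summed to 126 to 130 in Control, 129 to 135 in Thrombin and 102 to 106 in PD03 libraries. Nfkb1 made up the largest share in every library (40.9% to 45.0%). The share of Rela was 26.3% to 27.2% in PD03 libraries and at most 24.6% in the other 6, and that of Relb was 7.89% to 8.67% in PD03, 9.23% to 10.0% in Thrombin and 10.7% to 11.1% in Control libraries. FPKM was scaled by library totals, which include Col1a1. With that scaling the median over all tested genes shifted to -0.12 (log2) for PD03 against Control and -0.088 for PD03 against Thrombin, so the lower PD03 sum includes this shift, while the shares within a library do not.

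**Figure D3:**
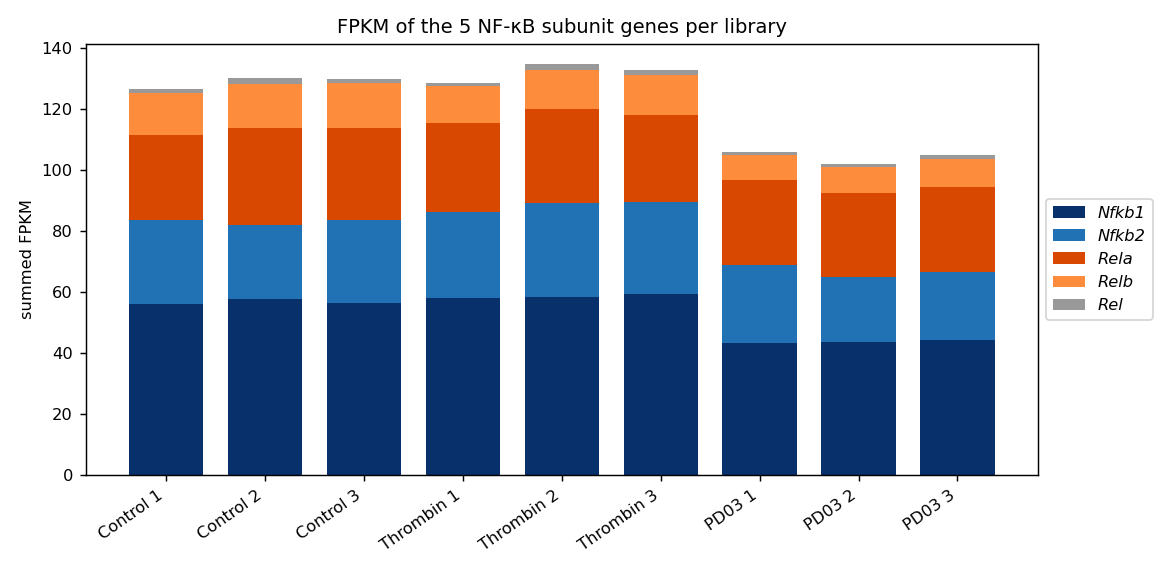
Summed FPKM (linear axis from 0) of the 5 subunit genes in each of the 9 libraries as stacked bars, one colour per gene, with no error bar because each bar is 1 library. The PD03 bars reach 102 to 106 FPKM, below the other 6 libraries.

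The genes around the 10 were described from lists of the pathway. The kinase complex and its adaptors, which carry the signal from receptors to IκB, had 28 of 30 genes tested. In Thrombin against Control 1 passed as higher and 5 as lower (14.1% and 14.6% of all genes, list median of the log2 fold change -0.010). In PD03 against Thrombin 5 passed as higher and 5 as lower (25.3% and 24.5% of all genes, list median 0.075). In PD03 against Control it was 2 and 0 (19.7% and 20.2%, list median -0.015), with a single call, as higher (4.9% of all genes). That call was Map3k8, the kinase Tpl2 that activates MEK and is held by p105, with 20.1 ± 1.27 CPM in Control and 30.2 ± 2.57 CPM in PD03 libraries (0.58, standard error 0.084, adjusted p = 2.2e-07). The call was lost with 7 of 11 other settings and without any 1 of Control replicates 2 and 3, Thrombin replicates 1 and 2 and PD03 replicate 2. With library totals as the scaling, the counts for PD03 against Thrombin became 2 higher and 9 lower, and for PD03 against Control 1 and 11. The median of all genes shifted as well, and the shares of all genes that passed under that scaling were not counted. Chuk and Ikbkb, the catalytic kinases, had log2 fold changes of -0.32 and 0.023 for PD03 against Thrombin, of which the first passed.

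Of the other brakes and modulators of the pathway, 25 of 25 genes were tested, and 5 passed as higher and 6 as lower in Thrombin against Control (14.1% and 14.6% of all genes, list median 0.0076). In PD03 against Thrombin 11 passed as higher and 7 as lower (25.3% and 24.5% of all genes, list median 0.14). Under library totals 6 passed as higher, with the median of all genes shifted and their passing share not counted. In PD03 against Control 6 passed as higher and 5 as lower (19.7% and 20.2%, list median 0.012). Tnip3, which encodes a partner of A20, had 2.52 ± 0.309 CPM in Control, 4.55 ± 0.602 CPM in Thrombin and 1.20 ± 0.254 CPM in PD03 libraries. It rose with thrombin (0.84, adjusted p = 0.0019) and was lower with PD03 than with thrombin (-1.93, adjusted p = 6.5e-09) and than in Control (-1.09, adjusted p = 8.1e-04), whereas Tnfaip3 had the opposite signs.

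Of these 25 genes, 3 were called higher and 3 lower, Tnip3 among the latter, in PD03 against Thrombin (9.61% and 6.31% of all genes). In Thrombin against Control 1 was called higher and 0 lower (2.62% and 5.44% of all genes). In PD03 against Control 1 was called higher and 1 lower (4.9% and 4.07% of all genes). Pdlim2, an E3 ligase that promotes degradation of nuclear p65, stood at 16.4 ± 2.20 CPM in Thrombin and 38.6 ± 6.16 CPM in PD03 libraries (1.24, adjusted p = 2.1e-14), and was also called higher than in Control (0.84). N4bp1 (104 and 171 CPM, 0.72) and Tnip2 (7.37 and 11.9 CPM, 0.69) were also higher with PD03. Birc3, which encodes the ubiquitin ligase cIAP2, fell from 19.9 ± 2.25 to 11.3 ± 0.393 CPM (-0.82, adjusted p = 3.8e-09). Zc3h12a, which encodes the RNase Regnase-1, had 212 and 139 CPM (-0.60). The call of Tnip2 was lost from FPKM with 1 added and without Thrombin replicate 1, that of Zc3h12a without Thrombin replicate 3 or PD03 replicate 1, and both when tested against the fold threshold, as were those of Tnip3 in the comparisons with Control.

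A list of 38 genes was taken as NF-κB targets from general knowledge, with earlier results of these data known. It includes genes that the paper had reported as raised by thrombin and lowered by PD03, such as Il1b, Cxcl3 and Lif. The shares of the list are therefore a description. Of the 38 genes, 32 were tested, 4 (Ccl5, Tnf, Bcl2a1 and Cd83) were below the filter and 2 (Sele and Tapbp) were not listed. In Thrombin against Control 15 passed as higher and 8 as lower (14.1% and 14.6% of all genes), with 8 and 3 called (2.62% and 5.44%) and a median log2 fold change of 0.27. Among called genes whose libraries did not overlap, the largest changes were in Cxcl3 (2.73), Il1b (1.57, adjusted p = 0.0012, at 0.657 ± 0.256 and 1.96 ± 0.536 CPM) and Lif (1.54) as higher and in Vcam1 (-1.30) and Lcn2 (-0.76) as lower. Cxcl10 was called lower with overlapping libraries (-0.87, adjusted p = 0.041). Cxcl3 encodes a neutrophil chemokine, and Lcn2 encodes lipocalin, which fell from 387 ± 4.18 to 228 ± 15.2 CPM.

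In PD03 against Thrombin 5 of the targets passed as higher and 20 as lower (25.3% and 24.5% of all genes), with 1 and 15 called (9.61% and 6.31%, median -0.49). Csf2, which encodes the cytokine GM-CSF, had 45 to 57 counts in the Thrombin libraries and 0 in the PD03 libraries, at least 49.5-fold lower when the 3 PD03 libraries together are given the floor of 3 counts. Cxcl3 fell from 204 ± 10.1 to 8.41 ± 1.09 CPM (-4.61). Cxcl2 had 3.08 ± 0.0945 and 0.081 ± 0.042 CPM (-5.16, standard error 0.47). With as few as 1 count per library, the value of Cxcl2 ranged from -5.60 to -1.87 over the alternative settings. Vcam1 was the only target called higher (0.80), a call that was lost from FPKM with 1 added and when tested against the fold threshold. In PD03 against Control 1 passed as higher and 20 as lower (19.7% and 20.2% of all genes), with 1 (Gadd45b, 0.84) and 10 called (4.9% and 4.07%) and a median of -0.37. Csf2 was at least 33.7-fold lower than in Control. Cxcl2 gave -3.63 (-4.07 to -0.92 over the alternative settings) and Cxcl10 -2.70 (-2.943 to -1.295), both from few counts in PD03 libraries. The medians were the same with Csf2 at its bound.

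**Figure D4:**
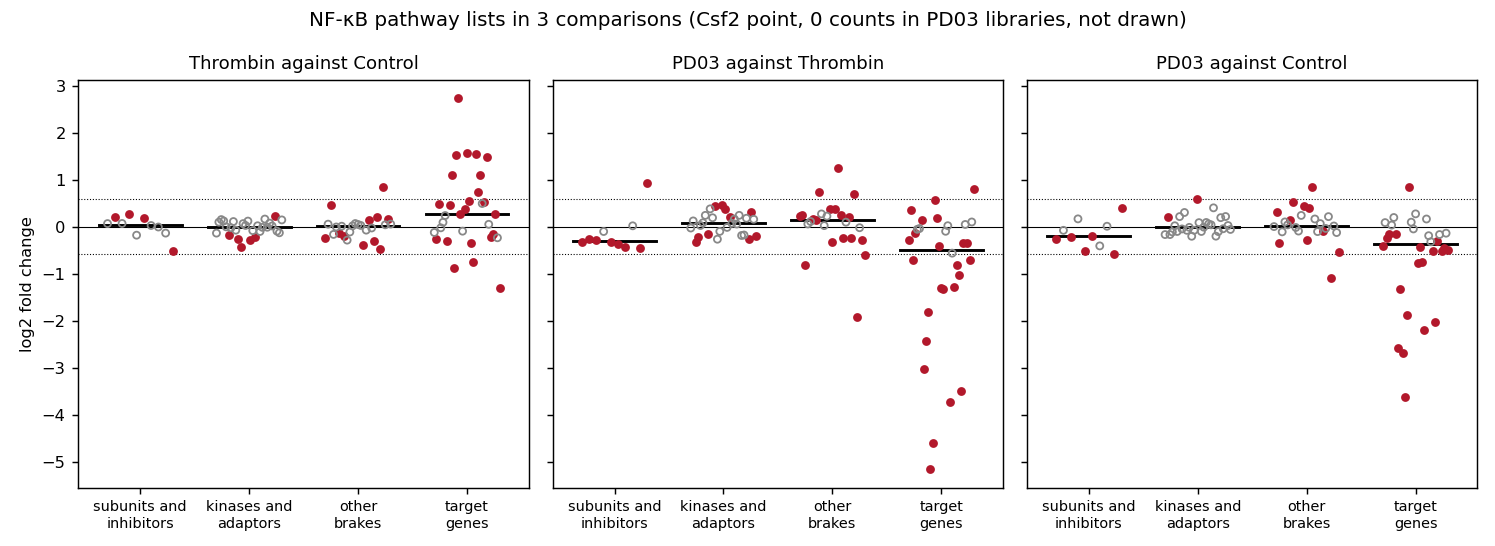
Log2 fold change (vertical axis) of each tested gene, as a point, for the 10 NF-κB genes and the 3 pathway lists in the 3 comparisons, with a bar at the list's median. Filled points passed the test, open points did not, and dotted lines mark 0.58 in either direction. The Csf2 point is not drawn because it had 0 counts in the PD03 libraries, but it enters the median. The medians of the targets were 0.27, -0.49 and -0.37, and those of the 10 genes 0.043, -0.31 and -0.21.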

How the data were processed

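The authors sequenced polyA RNA and deposited, for each gene and library, a raw count and an FPKM value. The paper names fastp, HISAT2, the build Rnor_6.0 and featureCounts, whereas the submitters' processing notes name HISAT2, HTSeq 0.13.5 and mRatBN7.2. The annotation release and the strandedness are both not given in the sources used here, so antisense or overlapping transcripts cannot be separated. The table holds no coordinates, and 2048 of 19085 genes have no symbol.

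The raw counts were analysed in R 4.3.3 with edgeR 4.0.16: filterByExpr with a minimum count of 10 (13256 genes), TMM scaling, 1 quasi-likelihood model of all 9 libraries, and Benjamini-Hochberg adjustment over all tested genes. The standard error was taken from the F statistic. The biological coefficient of variation was 4.28%. The 9 pairs of libraries within a group differed beyond counting noise (ratio of chi-square to its degrees of freedom, 1.82 to 4.04), so none was merged. Floors of 3 counts cover counting error only. The deposited FPKM values were used for levels between genes and, with 1 or 0.1 added before log2, in limma 3.58.1 as an alternative. Further alternatives were library totals, DESeq2 1.42.0 and its size factors, limma voom, no filter, a mean count of at least 50, a test against the fold threshold (glmTreat), a block for the replicate number, only the compared groups, and leaving out single libraries. The procedure was tested on simulated counts with changes placed in the Thrombin group only. That test did not cover the PD03 comparisons or a shift like that of Col1a1. Figures were drawn with matplotlib 3.10.9. Promoters and gene spans came from RefSeq tables for GRCr8, a newer assembly than the deposited table's.

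All 10 genes are named with every library. From each pathway list, up to 3 called genes with the largest rise and 3 with the largest fall per comparison are named (at least 1 CPM in the higher group, libraries not overlapping), and for the 3 members with the widest range the 3 most alike genes. Chuk, Ikbkb and individual cell type markers are outside this rule. The members and lists were chosen with earlier results of these data known.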

Additional observations from a re-analysis of the deposited data

How the results depend on the processing

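Over all alternatives, the log2 fold changes of the 10 genes kept their direction and their side of the threshold in 531 cases, no longer passed in 29, newly passed in 17 and changed sign in 23. Of the 29, 17 came from the test against the fold threshold, which asks for a larger change by its construction. All sign changes were in Rela and Rel, at values that did not pass in either setting. Library totals and FPKM shifted all genes: the median over all genes for PD03 against Thrombin and PD03 against Control was -0.088 and -0.12 with library totals, -0.065 and -0.089 from FPKM with 1 added, and -0.085 and -0.12 with 0.1 added, close to the values of Rela under them. Rela, with PD03 against Thrombin and PD03 against Control in that order, gave -0.083 and -0.11 with library totals, -0.0018 and -0.0032 without the filter, -0.079 and -0.11 from FPKM with 1 added, and -0.081 and -0.11 with 0.1 added. With each library left out in turn it ranged from -0.069 to 0.044 for Thrombin against Control, -0.010 to 0.038 for PD03 against Thrombin and -0.054 to 0.049 for PD03 against Control. Rel in Thrombin against Control gave -0.0048 and -0.011 from FPKM with 1 and 0.1 added, and -0.092 to 0.17 with a library left out. The cause of the other sign changes was not tested.

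The count of genes that passed as lower in Thrombin against Control was 1, and 2 with library totals, a mean count of at least 50, limma voom, the compared groups only and the replicate number as a block, and 1 to 2 with a library left out (2 without Thrombin replicate 2 or PD03 replicate 1). The second gene was Nfkbie each time (adjusted p = 0.021 to 0.047). The count called lower in PD03 against Thrombin was 0, and 0 to 1 with a library left out (Rel at -0.59 without Thrombin replicate 1). That in PD03 against Control was 1, 2 with library totals or FPKM with 0.1 added, 0 when tested against the fold threshold, and 0 to 1 with a library left out. Deviations from the group mean had correlations of -0.046 to 0.052 between same-numbered libraries of other groups. Between libraries with other numbers they were -0.056 to 0.055. Whether the numbers pair the samples cannot be told from this, because technical spread within groups would hide a shared source. The count that passed as lower in PD03 against Thrombin was 7. It was 6 with the DESeq2 test, limma voom or the block, and 6 to 7 with a library left out. With library totals and both FPKM settings, which shifted all genes, it was 8, with Nfkbib newly passing. In PD03 against Control the count was 5, and 5 to 6 with a library left out. With library totals and both FPKM settings it was 7, with Nfkb2 and Rel newly passing. The shares of all genes that passed under these settings were not counted. Rel, with 55 to 106 counts per library, was the least precisely measured of the 10.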

Other observations

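The genes whose levels over the 9 libraries were most like a member were looked up for the 3 members with the widest range of group means, by the root mean square difference of log2 CPM after centring. For Tnfaip3 they were Ldhb (0.063), Ptprd (0.071) and Slc39a8 (0.081). Slc39a8, which encodes a zinc transporter, had group means of 36.6, 22.8 and 46.0 CPM in Control, Thrombin and PD03 libraries. For Relb they were Ift57 (0.047), Tnfaip2 (0.055) and Chst15 (0.056), and for Nfkbie Tnfaip2 (0.067), Ift57 (0.067) and Socs5 (0.067). Tnfaip2, a gene known to be induced by tumour necrosis factor and itself in the list of targets, had 90.9, 81.0 and 63.3 CPM in the 3 groups. Ift57, the closest to Relb, had 28.8, 26.0 and 20.1 CPM. Ldhb, the closest to Tnfaip3, had 19.8, 13.0 and 26.6 CPM.

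Among the adaptors outside the calls, Myd88, which links interleukin-1 and Toll-like receptors to the pathway, differed by -0.29 (log2) between Thrombin and Control and by 0.37 between PD03 and Thrombin, and Malt1, a protease that cleaves A20, had -0.44 (adjusted p = 0.031) and 0.43 (adjusted p = 0.023). Traf2, another adaptor of the list, had the opposite signs, with 0.22 (adjusted p = 0.028) and -0.27 (adjusted p = 0.0039). These adaptors were picked after their values were seen.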
